A study of Arabidopsis thaliana with 8 samples.

Results

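The alpha- and beta-tubulin genes and PLE, a gene for a protein that bundles microtubules during cell division, were followed in stems of an Arabidopsis line that overexpresses SND2, a NAC transcription factor gene of xylem fibres. Members were all genes that the array annotation names TUA or TUB with a digit, together with PLE (AT5G51600), whose probe is named in the study's list of genes that changed at 8 weeks. There were 9 such genes, with 1 probe each, of 37479 features measured. They comprised 4 alpha-tubulin genes (TUA2, AT1G50010; TUA3, AT5G19770; TUA5, AT5G19780; TUA6, AT4G14960) and 4 beta-tubulin genes (TUB1, AT1G75780; TUB5, AT1G20010; TUB7, AT2G29550; TUB9, AT4G20890). A further 7 of the 15 alpha- and beta-tubulin genes listed for Arabidopsis had no probe with their name and are not analysed here. TUB8, which the study called significantly higher in the line at 8 weeks, is among them.

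SND2-OV(A) is a single homozygous T4 line in the Col-0 background that carries SND2 behind the constitutive promoter of pMDC32, and it was picked from 3 lines because the secondary wall cellulose synthase gene CesA8 was higher in it. It was set against wild type Col-0 plants of the same age, with 3 biological replicates at 8 weeks and 3 at 4 weeks. Each replicate pooled the lower primary inflorescence stems of 6 plants at 8 weeks or 10 plants at 4 weeks. By the study's description the stems were short at 4 weeks, and the lower part taken was most of their length. Per the methods, line seedlings of the 8-week experiment were selected on hygromycin and those of the 4-week experiment were not, whereas the labels describe hygromycin at both ages. Age, the part of the stem that was sampled, selection and experiment therefore cannot be told apart.

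Microtubules are hollow polymers of alpha- and beta-tubulin dimers. In elongating plant cells, and again in fibres and vessels that lay down a secondary wall, cortical microtubules lie under the plasma membrane and guide the complexes that make cellulose. In dividing cells they form the preprophase band, the spindle and the phragmoplast, the array that builds the new cell wall. PLE (PLEIADE, also called MAP65-3) holds opposing microtubules together at the midline of the phragmoplast, and roots of ple mutants have incomplete cell walls and cells with several nuclei.

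Each array compared stem RNA of the line with stem RNA of the wild type in 2 dyes, and every value below is a normalized log2 ratio of SND2-OV(A) over wild type, so that 0 means equal signal and 1 means a doubling in the line. Replicate 1 was hybridised in both dye orientations at each age and its 2 arrays were averaged. Replicate 2 had the line in Cy3 and replicate 3 had it in Cy5, which makes 4 arrays per age. SND2 itself had log2 ratios of 7.25, 5.23 and 7.60 at 8 weeks and of 2.97, 2.75 and 3.37 at 4 weeks, above 0 in every replicate. The study notes that the signal of the SND2 probe was saturated in 8-week stems, so its ratios at that age are lower limits. The array medians over all probes lay between -0.11 and 0.06, and the Cy5 array of replicate 1 at 8 weeks was the widest, with an SD of 1.01 over its probes against 0.31 to 0.60 on the other 7 arrays. None of 5 fibre and vessel markers, 3 phloem markers, 3 epidermis markers or 2 green parenchyma markers had a probe named by the annotation, so the make-up of the stems was not checked with them. In whole stems, more cells of a type and more RNA per cell cannot be told apart.

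PLE was higher in SND2-OV(A) stems than in wild type stems on all 8 arrays. At 8 weeks replicates 1 to 3 gave log2 ratios of 0.99, 1.17 and 1.01, a mean of 1.06 ± 0.10 (SD, n = 3) and a 2.08-fold level. The probe is named only because the study listed the gene at this age, so these values are a description and were not tested. At 4 weeks, in other plants, PLE had log2 ratios of 0.57, 0.51 and 0.48. The mean was 0.52 ± 0.05 (SD, n = 3), a 1.43-fold level with a 95% interval of 0.24 to 0.80 on the log2 scale. The mean at 8 weeks exceeded that at 4 weeks by 0.54 on the log2 scale. That difference includes the 8-week values through which the probe was named, which favours a higher level at 8 weeks. It was not tested either.

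The dye-swapped arrays of PLE agreed more closely at 4 weeks than at 8 weeks. At 8 weeks the 2 arrays of replicate 1 gave 1.33 with the line in Cy3 and 0.65 with it in Cy5, a gap of 0.68, against a median gap of 0.25 over all features. Both arrays with the line in Cy3 then lay above both with it in Cy5, with means of 1.25 and 0.83. At 4 weeks the gap within the pair was 0.10, against a median of 0.26 over all features, and the means were 0.51 with the line in Cy3 and 0.55 with it in Cy5.

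In limma, PLE at 4 weeks had an unadjusted p of 0.00602 and an adjusted p of 1.0 over all 37479 features. It did not pass the threshold, an adjusted p under 0.05 with a fold change above 1.5. Its 1.43-fold level was below the fold cut, so it could not have passed at any p. It ranked number 17 of all features by moderated t, and its mean log2 ratio lay above that of 98.4% of them. No feature passed at 4 weeks (0.0%), and 133 features (0.355%) had an unadjusted p under 0.05 with a higher level in the line.

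**Figure D1:**
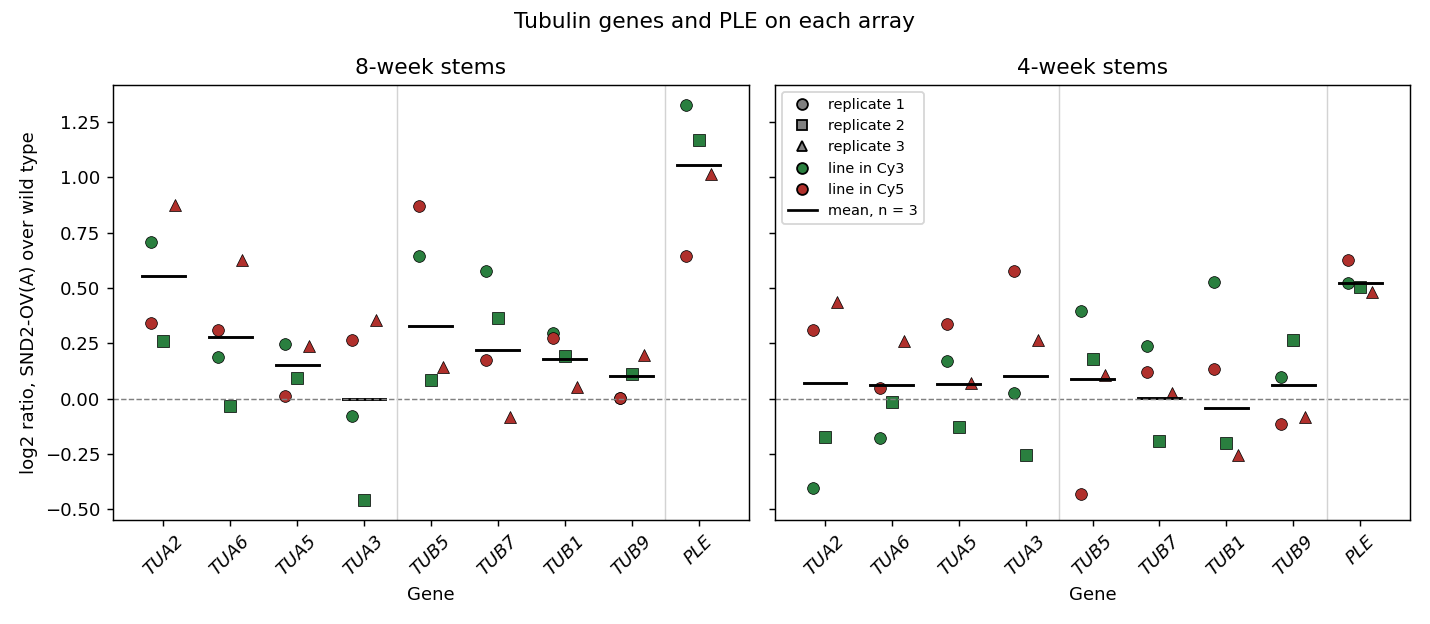
Log2 ratio of SND2-OV(A) over wild type (vertical axis) of each tubulin gene and of PLE (horizontal axis) on each of the 4 arrays per age, with 8-week stems on the left and 4-week stems on the right. Symbols show the replicate, colours show the dye that carried the line, and black bars are means of the 3 replicates. PLE lies above 0 on every array, at 0.65 to 1.33 at 8 weeks and 0.48 to 0.63 at 4 weeks, whereas the tubulin genes scatter around 0 at 4 weeks.

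TUA2, an alpha-tubulin gene, had the highest ratio of the tubulins at 8 weeks, and its arrays at 4 weeks split by dye. At 8 weeks the replicates gave log2 ratios of 0.52, 0.26 and 0.88, all above 0. The mean was 0.55 ± 0.31 (SD, n = 3), a 1.47-fold level with a 95% interval of 0.17 to 0.93. In limma its unadjusted p was 0.0141 and its adjusted p was 0.986. The study's own fit of the 8-week arrays called TUA2 significantly higher in the line, without a fold cut. The threshold used here also needed a fold change above 1.5, which TUA2 did not reach. Its adjusted p failed as well, and no feature passed in the fit used here. At 4 weeks the replicates gave -0.05, -0.17 and 0.43, on both sides of 0, with a mean of 0.07 ± 0.32 (SD, n = 3). The arrays with the line in Cy3 gave -0.40 and -0.17 at that age, and those with it in Cy5 gave 0.31 and 0.43. The gap within the dye-swapped pair of TUA2 was 0.71 at 4 weeks and 0.37 at 8 weeks, both above the median over all features. The ratio of TUA2 at 8 weeks was above 0 under the 12 alternatives, a dye term in the fit included, at 0.39 to 0.70. Single probes could not move it, since TUA2 has 1 probe. Robust variances, both ages in 1 fit and named genes only leave the mean of any gene unchanged.

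TUA6, the alpha-tubulin gene most used for fluorescent marking of microtubules, gave log2 ratios of 0.25, -0.03 and 0.63 at 8 weeks and of -0.06, -0.02 and 0.26 at 4 weeks. The means were 0.28 ± 0.33 at 8 weeks and 0.06 ± 0.17 at 4 weeks (SD, n = 3 each). At both ages replicate 3 exceeded the others, and without it the 8-week mean of TUA6 was 0.11.

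TUA3 and TUA5 are neighbours in the RefSeq annotation of the TAIR10.1 assembly and encode the same protein. TUA5 was above 0 in each replicate at 8 weeks, at 0.13, 0.09 and 0.24, and its SD of 0.07 was the smallest of the tubulins. Its mean was 0.15 (n = 3, 95% interval -0.08 to 0.39), and at 4 weeks its replicates gave 0.25, -0.13 and 0.07. TUA3 gave 0.09, -0.46 and 0.36 at 8 weeks and 0.30, -0.25 and 0.26 at 4 weeks. Its mean was -0.00 ± 0.42 at 8 weeks and 0.10 ± 0.31 at 4 weeks (SD, n = 3 each), and replicate 2 was the lowest at both ages. Centring the arrays moved the 8-week mean of TUA3 above 0, and without replicate 2 it was 0.22. Probes of near-identical tubulin genes may take up transcripts of each other, which was not tested because the probe sequences were not used here.

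Among the beta-tubulin genes, all 4 had means above 0 at 8 weeks, and 3 were above 0 in every replicate. TUB5 gave log2 ratios of 0.76, 0.08 and 0.14 at 8 weeks, so that replicate 1 stood apart, on both of its arrays (0.64 with the line in Cy3 and 0.87 with it in Cy5). The 8-week mean of TUB5 was 0.33 ± 0.37 (SD, n = 3) and was 0.11 without replicate 1. At 4 weeks the same gene gave -0.02, 0.18 and 0.11, and the first of these averages 0.40 with the line in Cy3 and -0.43 with it in Cy5.

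TUB1, a gene lowered by light in seedling hypocotyls, gave 0.28, 0.19 and 0.05 at 8 weeks and 0.33, -0.20 and -0.25 at 4 weeks. Its means were 0.18 ± 0.12 at 8 weeks and -0.04 ± 0.32 at 4 weeks (SD, n = 3 each). TUB7 gave 0.38, 0.36 and -0.09 at 8 weeks and 0.18, -0.19 and 0.03 at 4 weeks, with replicate 3 the lowest at 8 weeks. Its means were 0.22 ± 0.26 at 8 weeks and 0.00 ± 0.18 at 4 weeks (SD, n = 3 each), and the 8-week mean of TUB7 was 0.369 without replicate 3, 0.138 without replicate 1 and 0.145 without replicate 2. TUB9, a tubulin gene best known from pollen, lay nearest to 0 of the beta-tubulins at 8 weeks, at 0.00, 0.11 and 0.20. Its means were 0.10 ± 0.10 at 8 weeks and 0.06 ± 0.18 at 4 weeks (SD, n = 3 each), and the 8-week mean of TUB9 was 0.06 without replicate 3.

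**Figure D2:**
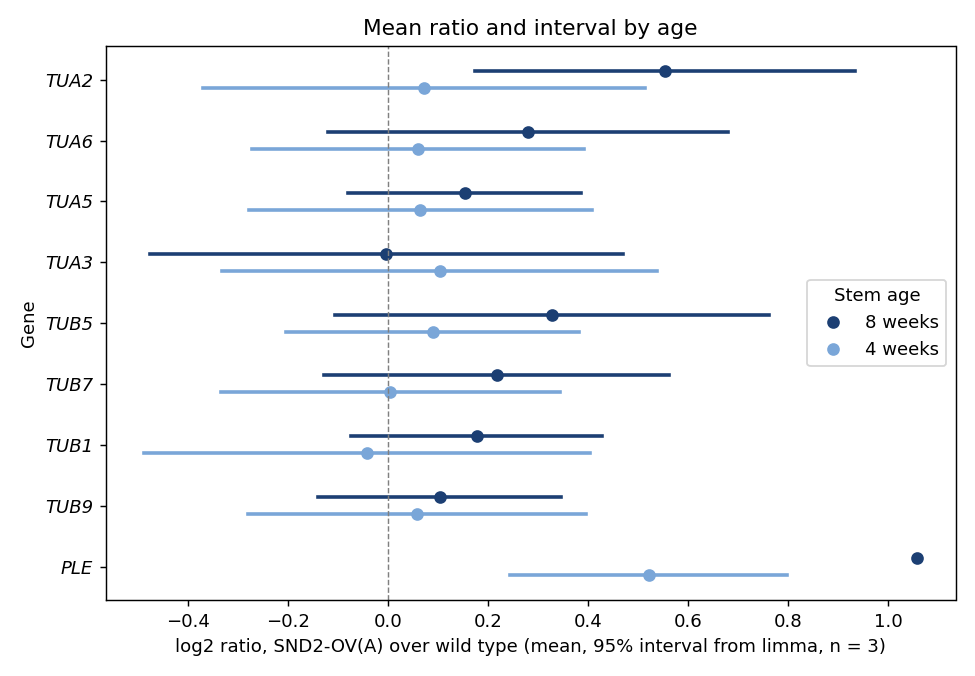
Mean log2 ratio of SND2-OV(A) over wild type (horizontal axis) of each gene (vertical axis), with 8 weeks in dark blue above 4 weeks in light blue. Lines are 95% intervals from limma over 3 replicates, and the point of PLE at 8 weeks has none because it was not tested. Of the tubulin intervals only that of TUA2 at 8 weeks, 0.17 to 0.93, lies wholly above 0.

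No tubulin gene passed the threshold at either age. The highest levels were 1.47-fold at 8 weeks (TUA2) and 1.07-fold at 4 weeks (TUA3), below the fold cut of 1.5. None could therefore have passed at any p. Adjusted p-values of the tubulins in limma were at least 0.986 at 8 weeks. At 8 weeks 0 of 8 tubulin genes passed in limma, and neither did any of the 37479 features (0.0%). The smallest adjusted p of any feature in limma was 0.44 at that age, so the SND2 transgene did not pass either. At 4 weeks SND2 had an 8.18-fold level and an adjusted p of 0.411 in limma. A gene that changed could thus fail the threshold, and failing it does not show that a tubulin gene was unchanged. At 8 weeks TUA2 was the 1 tubulin gene of 8 with an unadjusted p under 0.05 in limma, against 495 features (1.32%) with such a p and a higher level in the line. At 4 weeks 0 of 8 had an unadjusted p under 0.05. The intervals of the tubulins were wide: at 8 weeks their upper ends lay between 0.34 and 0.93 on the log2 scale, so that changes above 1.5-fold were within the intervals of TUA2, TUA6 and TUB5.

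The median of the tubulin genes lay above that of the array at 8 weeks. The 8 genes had a median log2 ratio of 0.20, against -0.04 over all features and -0.01 over the 7234 genes named by the annotation. By replicate the tubulin median was 0.27, 0.10 and 0.22, and that of all features was -0.04, -0.07 and 0.00. Means above 0 were found for 7 of 8 tubulin genes, against 37.9% of all features and 47.4% of named genes. Ratios above 0 in all 3 replicates were found for 5 of 8 (TUA2, TUA5, TUB1, TUB5 and TUB9), against 7.73% of all features and 10.5% of named genes. For TUB9 replicate 1 was at 0.00, just inside that count. The 8 genes were read on the same arrays, and near-identical ones may share probe signal. Counts of them, here and below, are therefore not counts of independent observations.

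At 4 weeks the tubulin median was 0.06, against -0.00 over all features and 0.01 over named genes. By replicate it was 0.09, -0.15 and 0.09, so that replicate 2 lay below 0. Means above 0 were found for 7 of 8 tubulin genes, against 49.0% of all features and 52.9% of named genes. None of the 8 was above 0 in all 3 replicates, against 8.88% of all features and 8.97% of named genes, and none was below 0 in all 3. The alpha-tubulins had medians of 0.22 at 8 weeks and 0.07 at 4 weeks, and the beta-tubulins had medians of 0.20 at 8 weeks and 0.03 at 4 weeks.

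**Figure D3:**
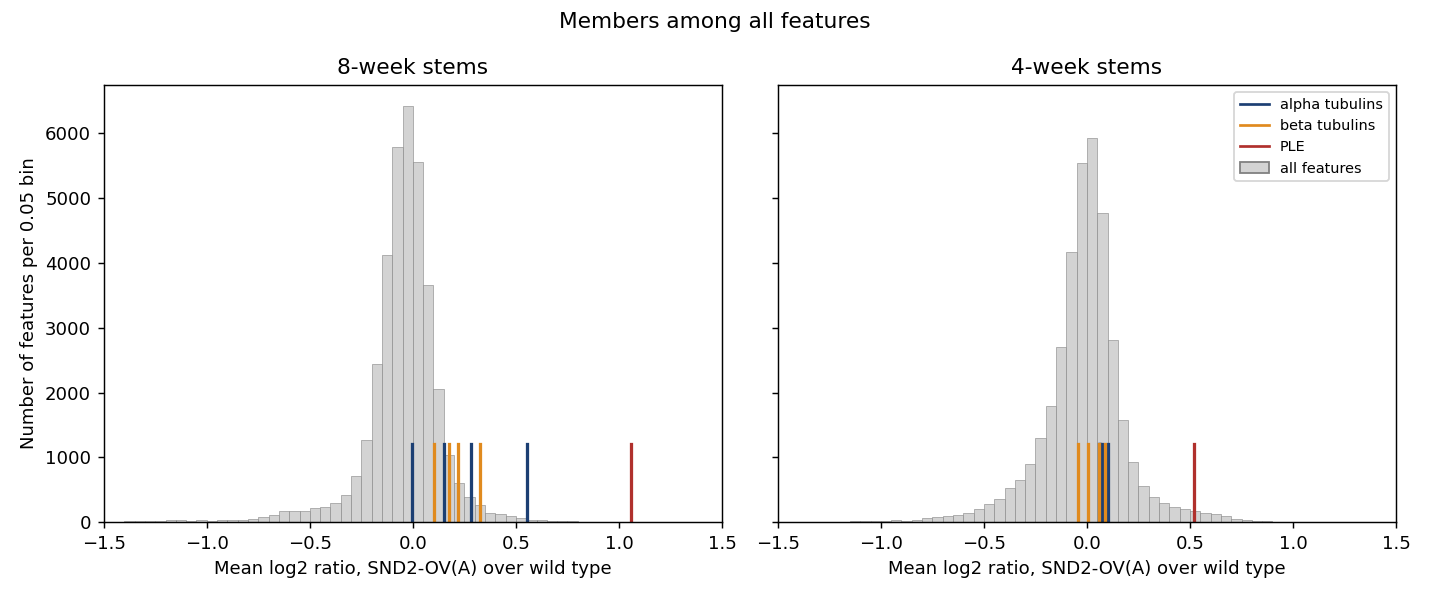
Number of features (vertical axis) by mean log2 ratio of SND2-OV(A) over wild type (horizontal axis, bins of 0.05), with 8-week stems on the left and 4-week stems on the right. Grey bars are all 37479 features within the plotted range, and coloured lines, whose height carries no value, are the alpha-tubulin genes, the beta-tubulin genes and PLE. At 8 weeks the tubulin lines run between -0.00 and 0.55 with PLE at 1.06, and at 4 weeks they run between -0.04 and 0.10 with PLE at 0.52.

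Dye orientation split the 9 genes about as often as it split features in general. At 8 weeks both arrays with the line in Cy5 lay above both with it in Cy3 for 2 genes, TUA3 and TUA6, against 37.8% of all features, and below them for 2, TUB7 and PLE, against 17.3%. At 4 weeks they lay above them for 3 genes, TUA2, TUA3 and TUA6, against 33.0% of all features, and below them for 2, TUB5 and TUB9, against 15.4%. Over all features the median difference between orientations was 0.11 at 8 weeks and 0.12 at 4 weeks. Since replicates 2 and 3 each had 1 orientation, replicate and dye cannot be told apart for them.

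Ordered by mean log2 ratio at 8 weeks, the genes ran PLE, TUA2, TUB5, TUA6, TUB7, TUB1, TUA5, TUB9 and TUA3. The place of PLE at that age follows from how its probe came to be named and is not set against the tubulins. No pair of neighbours among the tubulins differed by more than the SD of its difference, and TUA2 and TUB5 differed by 0.23 ± 0.48 (SD of the difference, n = 3). At 4 weeks the order was PLE, TUA3, TUB5, TUA2, TUA5, TUA6, TUB9, TUB7 and TUB1. PLE lay above TUA3 in 3 of 3 replicates, by 0.42 ± 0.30, and the tubulins followed each other at steps of 0.00 to 0.05, each smaller than its SD.

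Whether the ratios of the tubulins differed between ages was tested in 1 fit over the 6 replicate ratios. None of 8 tubulin genes passed an adjusted p under 0.05 in limma, and neither did any of the 37479 features (0.0%). None of the 8 had an unadjusted p under 0.05 either, against 213 features (0.568%) with such a p and a larger ratio at 8 weeks. TUA2 had the widest gap, 0.48 higher at 8 weeks (95% interval -0.08 to 1.04, unadjusted p = 0.0809, adjusted p = 1.0). For the other tubulins the difference ran between -0.11 for TUA3 and 0.24 for TUB5, and it was above 0 for 7 of 8 genes, against 45.7% of all features.

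Over the 6 replicate ratios TUA2 and TUA6 were the most alike pair, with a Pearson r of 0.92. TUB1 and TUB7 followed with an r of 0.75 and TUA5 and TUB1 with 0.67, whereas the neighbours TUA3 and TUA5 reached 0.65. In TUA2 and TUA6 replicate 3 was the highest at each age. The 6 points share the dye orientation of their replicates and the age, so these values describe the arrays only. With the mean ratio of the 8 tubulins, which was 0.30, 0.08 and 0.30 at 8 weeks and 0.12, -0.07 and 0.10 at 4 weeks, the most alike named genes were AT3G09580 with an r of 0.98, AT3G47800 with 0.98, AT1G10340 with 0.97, AT1G04430 with 0.96 and AT5G18500 with 0.96. These were the highest of 7234 named genes less the tubulins, over 6 points.

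The other genes of the microtubule and division lists gave few named probes. Only 1 of 8 genes of the MAP65 family, to which PLE belongs, carried a name: ATMAP65-6 gave log2 ratios of 0.28, 0.17 and -0.34 at 8 weeks and of -0.05, 0.25 and -0.11 at 4 weeks. Its means were 0.04 ± 0.33 at 8 weeks and 0.03 ± 0.19 at 4 weeks (SD, n = 3 each). Its replicates lay on both sides of 0 at both ages.

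Of 20 genes for microtubule dynamics and array order 1 was named, TON1B (AT3G55005), a protein needed for the preprophase band, whose neighbour on the chromosome is its close copy TON1A. TON1B gave 0.45, 0.19 and 0.85 at 8 weeks and 0.12, 0.08 and 0.36 at 4 weeks, above 0 in every replicate. Its mean was 0.50 ± 0.33 at 8 weeks, with an unadjusted p of 0.0252 and an adjusted p of 0.986 in limma, and 0.18 ± 0.15 at 4 weeks, with an unadjusted p of 0.185 and an adjusted p of 1.0 (SD, n = 3 each). As in TUA2 and TUA6, replicate 3 was the highest and replicate 2 the lowest at 8 weeks.

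Of 10 genes for microtubule nucleation and tubulin folding 4 were named, and their means lay between -0.02 and 0.05 at 8 weeks and between -0.02 and 0.06 at 4 weeks. TUBG1, a gamma-tubulin that starts new microtubules, was the lowest of them at 8 weeks, at -0.02 ± 0.25 (SD, n = 3). POR, the tubulin folding cofactor C, was the highest there, at 0.05 ± 0.16 (SD, n = 3), and it was the lowest at 4 weeks, at -0.02 ± 0.19 (SD, n = 3). PFI, the tubulin folding cofactor E, was the highest at 4 weeks, at 0.06 ± 0.04 (SD, n = 3). AT5G17410 lay between them at both ages.

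Of 12 kinesin genes 1 was named, KINESIN-13A, a motor that takes microtubules apart, with means of 0.04 ± 0.17 at 8 weeks and 0.04 ± 0.29 at 4 weeks (SD, n = 3 each). Of 24 genes for cytokinesis and cell division 2 were named. KEU, which takes part in the fusion of vesicles at the forming cell plate, had means of 0.04 ± 0.11 at 8 weeks and -0.01 ± 0.25 at 4 weeks (SD, n = 3 each). AUR1, a mitotic Aurora kinase and the only marker of dividing cells with a named probe, gave -0.22, -0.18 and 0.19 at 8 weeks and 0.25, -0.13 and 0.25 at 4 weeks. Replicates of AUR1 lay on both sides of 0 at both ages. ACT11, the 1 of 10 actin and profilin genes with a name, had means of 0.02 ± 0.13 at 8 weeks and -0.04 ± 0.28 at 4 weeks (SD, n = 3 each).

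Among the 9 listed microtubule and division genes beside the members, 0 passed the threshold at either age in limma, as did 0.0% of all features. The highest level among them was 1.41-fold (TON1B at 8 weeks), below the fold cut, so none could have passed at any p. At an unadjusted p under 0.05 and a higher level in the line there was 1 at 8 weeks, TON1B, against 1.32% of all features, and there were 0 at 4 weeks, against 0.355%. Their median log2 ratio was 0.04 at 8 weeks, against -0.04 over all features, and 0.03 at 4 weeks, against -0.00.

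**Figure D4:**
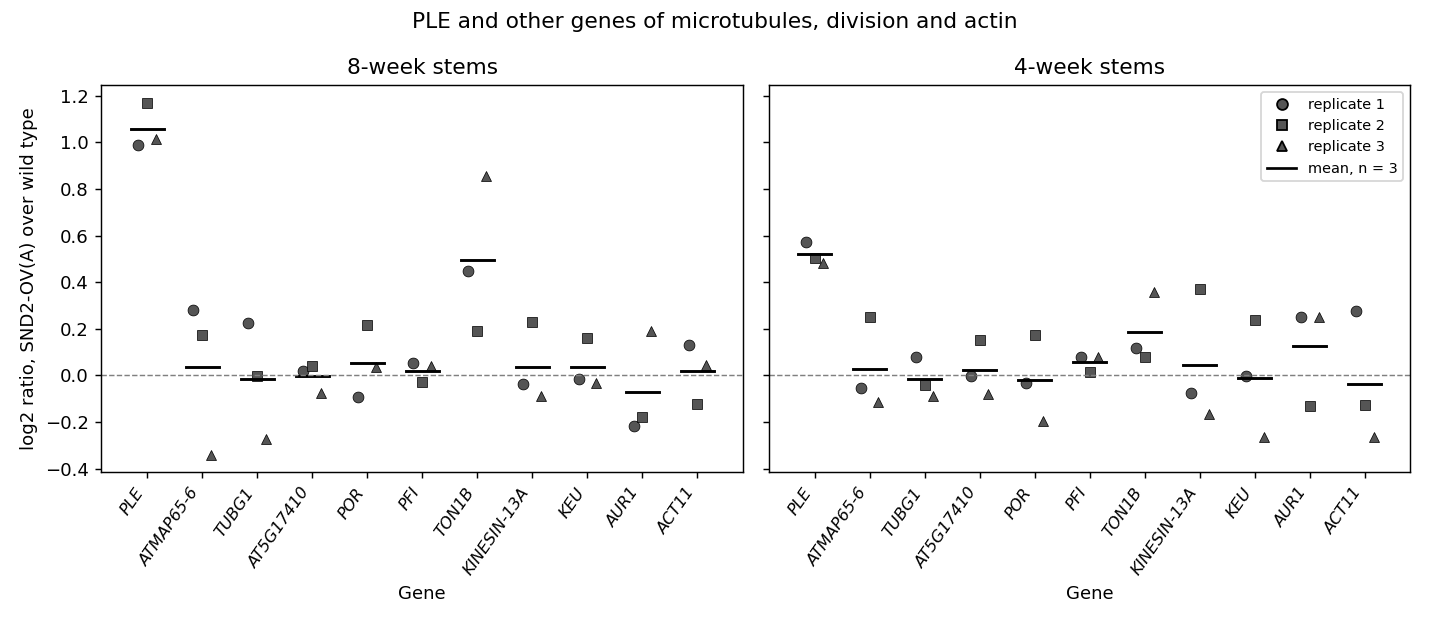
Log2 ratio of SND2-OV(A) over wild type (vertical axis) of PLE and of the 10 other genes of microtubules, division and actin with a named probe (horizontal axis), with 8-week stems on the left and 4-week stems on the right. Symbols are the 3 replicates and bars are their means. PLE is highest at both ages, but its place at 8 weeks follows from how its probe came to be named. TON1B comes next with 0.50 at 8 weeks and 0.18 at 4 weeks. The means of the other genes lie between -0.07 and 0.13.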

How the data were processed

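Gene expression was compared on 8 two-colour Agilent arrays of 37685 probes. Per the methods, the authors scanned the slides on a GenePix instrument and normalized the intensities with limma in R; the deposited log2 values set the line over the wild type on every array, dye-swapped ones included, and how the background was treated is not given in the sources used here. No spot intensities were analysed, so the depth behind a ratio is unknown and precision is limited by the 3 replicates per age. The annotation, which is old, named 7440 probes; 30245 had no gene name, and the probes of PLE and SND2 were named through the study's list for 8 weeks. Probes of 1 gene were averaged. The authors' lists of fold changes and p-values were used for probe names and to check scale and direction. Beyond this, only their calls of TUA2 and TUB8 were quoted. At 8 weeks the mean ratios here came within 0.001 of the listed log2 value for 188 of 223 listed probes, PLE included. The remaining 35 had the same sign but another size. At 4 weeks 45 of 45 came within 0.001.

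Dye-swapped arrays of replicate 1 were averaged, and the 3 ratios per age were tested against 0 with limma 3.58.1 in R 4.3.3, two-sided, with Benjamini-Hochberg adjustment over all 37479 features. An exact sign test of 3 ratios cannot go below p = 0.25. The fits were tested on simulated data. All members were named, the other listed genes by their counts and extremes. The members and lists were chosen with earlier results of these data known. A search of promoters was not run, and no sequences are shown, because no sequence table was used here.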

Additional observations from a re-analysis of the deposited data

How the results depend on the processing

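Under the 12 alternatives at each age and the 8 for the age difference, no tubulin gene passed, nor did PLE at 4 weeks. Adjusted p-values of the tubulins in limma were at least 0.727 at 8 weeks, 0.995 at 4 weeks and 0.981 for the difference. At 4 weeks neither the tubulins nor PLE reached the fold cut under any alternative. Few features passed at all. At 8 weeks 3 of 37479 passed without replicate 1, 1 without replicate 2 and 2 with both ages in 1 fit. At 4 weeks 2 of 37479 passed with both ages in 1 fit and 2 of 7236 with named genes only. For the age difference no feature passed. The alternatives used 1 dye orientation of replicate 1, all arrays with a dye term (with the correlation of dye-swapped pairs, 0.235, estimated over all 8 arrays), centred or scaled arrays, single probes, robust variances, both ages in 1 fit or named genes only, or left out a replicate. Means above 0 were found for 7 to 8 of 8 tubulin genes at 8 weeks, against 34.5% to 50.2% of all features, and for 5 to 8 at 4 weeks, against 40.7% to 55.2%. Single probes cannot move the mean of a gene with 1 probe, and robust variances, both ages in 1 fit and named genes only move no mean. The tubulin median at 8 weeks lay between 0.15 without replicate 1 and 0.25 with centred and scaled arrays. At 4 weeks it lay between 0.02 by the Cy3 array of replicate 1 and 0.10 without replicate 2. The same numbers of replicates at the 2 ages correlated at -0.02, 0.12 and 0.16 and share only a number; with the replicate block 0 tubulin genes passed for the age difference, as without it, and the features at an unadjusted p under 0.05 numbered 842, against 603.

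Signs near 0 were not stable, and the cause was not tested. TUA3 at 8 weeks was 0.055 with the Cy5 array of replicate 1 only, 0.013 with a dye term, 0.033 with centred arrays, 0.044 with scaled arrays, and between -0.183 and 0.224 with a replicate left out. At 4 weeks, with the Cy3 array only, TUA2 was -0.047 and TUB1 0.024; with the Cy5 array only, TUB5 was -0.049 and TUB7 -0.015. TUB1 was 0.022 with a dye term and TUB7 was -0.00041 with centred arrays. With a replicate left out, the 4-week ranges were -0.109 to 0.194 for TUA2, -0.028 to 0.162 for TUA5, -0.039 to 0.122 for TUA6, -0.229 to 0.064 for TUB1, -0.082 to 0.102 for TUB7 and -0.045 to 0.13 for TUB9. The age difference then ran from -0.029 to 0.406 for TUB5, with the lowest value without replicate 1, and from -0.074 to 0.144 for TUB9, with the lowest without replicate 3. PLE at 8 weeks was 1.17 by the Cy3 array of replicate 1 and 0.94 by the Cy5 array, and at 4 weeks it stayed between 0.48 and 0.54.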
